A study of Mus musculus with 2 samples.

Results

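Collagens are the triple-helical proteins of the extracellular matrix, and the 44 mouse genes whose symbols consist of Col, a type number, the letter a and a chain number were taken as the collagen genes of these data. They were 44 of 23183 genes listed with a value in both libraries, and they covered 27 collagen types. A gene was called expressed when its mean over both libraries reached 1 FPKM (fragments per kilobase of transcript, scaled to the mapped fragments of the library). By that rule 12 collagens of 9 types were expressed: Col1a1, Col5a1 and Col27a1 of the fibrillar class, Col4a1, Col4a2 and Col4a5 of the basement membrane class (the type IV chains), and Col6a1, Col6a2, Col7a1, Col8a1, Col16a1 and Col18a1 of the remaining types. All 12 had a lower value in the KPR_restored library than in the KPR- library, and 7 of them were lower by 0.5 or more on the log2 scale. Among all 11231 expressed genes 9.29% were lower by that much. Col16a1 reached the limit only through the KPR- library, and 6 of the 11 collagens at 1 FPKM or more in both libraries were lower.

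The cells were a lung cancer line, named KPR-, established from a mouse with a Cre-activated oncogenic K-Ras allele, floxed p53 alleles, a tdTomato reporter, 1 floxed Runx3 allele, 1 Runx3 allele silenced by an Frt-flanked stop cassette (FSF), and a tamoxifen-inducible Flp recombinase (Flp-ERT2). Adenoviral Cre had switched on K-Ras and removed p53 and the floxed Runx3 allele in the ancestor of both groups, so both groups share these changes. The KPR- library is labelled RUNX3 -/- and 0 h, and the KPR_restored library, in which Flp removes the stop cassette after 4-hydroxytamoxifen (4-OHT), is labelled RUNX3 -/+ and 16 h. With 1 library in each group there was no replicate check and no p-value is given, and restoration of Runx3, 4-OHT itself and the hours in culture cannot be told apart. The labels list 1 µM 4-OHT for both samples.

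Every collagen chain carries repeats of glycine followed by other residues, many of them proline, and 3 chains wind into a helix inside the endoplasmic reticulum after prolines and lysines have been hydroxylated. Fibrillar collagens are then trimmed and crosslinked into fibrils, type IV collagens form the sheet-like network of basement membranes, and the other types decorate fibrils, form beaded filaments or anchor epithelia. In the lung, fibroblasts make most fibrillar collagen, whereas epithelial and endothelial cells also lay down the type IV network beneath them.

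The Runx3 gene (chr4:135120652-135177990, build mm10) was 0.348 FPKM in KPR- and 0.349 FPKM in KPR_restored (log2 difference 0.0074, 95% counting interval -0.79 to 0.81). Its RNA level therefore does not check the labels of the libraries, and the directions below are those of the libraries so labelled. Depth, estimated from the steps between low FPKM values, was 21.8 M fragments for KPR- and 22.4 M for KPR_restored. All 9 epithelial marker genes examined were expressed, summing to 6514 FPKM in KPR- and 5900 FPKM in KPR_restored. Of these Krt7, at 1229 FPKM and 743 FPKM, was lower by 0.5 or more on the log2 scale and Cldn4, at 107 FPKM and 202 FPKM, was higher. Of 7 alveolar type 2 markers only Abca3 was expressed, at 18.2 FPKM and 14.6 FPKM, while Sftpd and Nkx2-1 rested on at most 10 fragments a library and Sftpa1, Sftpb, Sftpc and Lamp3 were listed at 0 in both.

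Because RUNX proteins bind DNA, the bases before the transcription start are shown for 4 expressed collagens, Col8a1, Col27a1, Col7a1 and Col5a1, which span most of the range of differences and whose 250 bases hold no annotated exon. The Col27a1 sequence precedes a RefSeq start that lies inside the annotated gene, and the other 3 end at the outer edge of the gene. They were read from RefSeq (build GRCm38.p6, the assembly of mm10) at chr16:57754738-57754987 on the minus strand for Col8a1, and on the plus strand at chr4:63215162-63215411 for Col27a1, chr9:108953336-108953585 for Col7a1 and chr2:27886175-27886424 for Col5a1. Each is written 5′ to 3′ along the gene's strand, and capitals mark the core RUNX motif TGTGGT and the GC box GGGCGG, each with its reverse complement.
Col8a1: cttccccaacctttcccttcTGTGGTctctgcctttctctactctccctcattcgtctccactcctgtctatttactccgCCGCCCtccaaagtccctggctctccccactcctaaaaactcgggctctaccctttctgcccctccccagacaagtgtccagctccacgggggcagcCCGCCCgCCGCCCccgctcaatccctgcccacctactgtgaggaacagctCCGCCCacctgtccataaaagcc
Col27a1: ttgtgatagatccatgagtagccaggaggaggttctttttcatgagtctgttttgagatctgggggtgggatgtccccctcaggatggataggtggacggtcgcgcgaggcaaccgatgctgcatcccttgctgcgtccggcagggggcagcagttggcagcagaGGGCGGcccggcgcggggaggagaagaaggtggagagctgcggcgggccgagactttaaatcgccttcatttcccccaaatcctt
Col7a1: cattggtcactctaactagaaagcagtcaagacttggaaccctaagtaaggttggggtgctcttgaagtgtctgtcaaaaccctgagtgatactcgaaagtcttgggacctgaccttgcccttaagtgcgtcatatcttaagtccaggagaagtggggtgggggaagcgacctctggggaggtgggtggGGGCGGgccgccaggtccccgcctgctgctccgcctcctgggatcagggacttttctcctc
Col5a1: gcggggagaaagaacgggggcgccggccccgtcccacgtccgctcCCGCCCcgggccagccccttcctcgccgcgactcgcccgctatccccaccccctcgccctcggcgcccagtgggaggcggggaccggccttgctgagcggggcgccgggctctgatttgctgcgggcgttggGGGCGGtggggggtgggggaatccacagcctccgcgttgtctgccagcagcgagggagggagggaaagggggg
The core RUNX motif appeared once among these 4 sequences, in Col8a1, beginning at position -230 relative to the start. All 4 held at least 1 GC box, and Col8a1 held 4.

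The same motifs were counted in windows of 300 bases, from 250 before to 50 after each annotated start, on both strands. Windows were found for 35 of the 44 collagens (38 windows) and for 11 of the 12 expressed ones (13 windows). The expressed collagen without a window was Col1a1, which had the largest difference of the 12, so its start was not scanned. TGTGGT or its complement was in 3 of the 38 collagen windows and 2 of the 13 windows of expressed collagens, those of Col8a1 and of the downstream start of Col18a1, against 16.8% of all 32851 windows. The GC box was in 23 of the 38 and 11 of the 13, against 35.7% of all windows. The TATA motif TATAAA was in 5 of the 38 and in 0 of the 13, against 13.6%, and the AP-1 motif TGANTCA was in 1 of each, that of Col6a1, against 7.81%. These letters are a description of the windows and not a record of binding. The shares over all windows include genes not expressed here, and no share over expressed genes alone is given. The windows of Col4a1 and Col4a2 overlap.

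Levels within the family spanned several orders of magnitude, and 3 genes made up most of the collagen signal. Col18a1, whose product is cleaved to release endostatin, was 148 FPKM in KPR- and 107 FPKM in KPR_restored. Col4a1 was 71.1 FPKM and 52.0 FPKM, and Col4a2, its partner in the main type IV heterotrimer, was 46.1 FPKM and 33.7 FPKM. Together these 3 genes held 72.7% of the summed collagen FPKM in KPR- and 77.5% in the KPR_restored library. The 44 genes summed to 365 FPKM in KPR- and 249 FPKM in KPR_restored, a log2 difference of -0.55. That was 0.0701% and 0.0475% of each library's total FPKM.

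**Figure D1:**
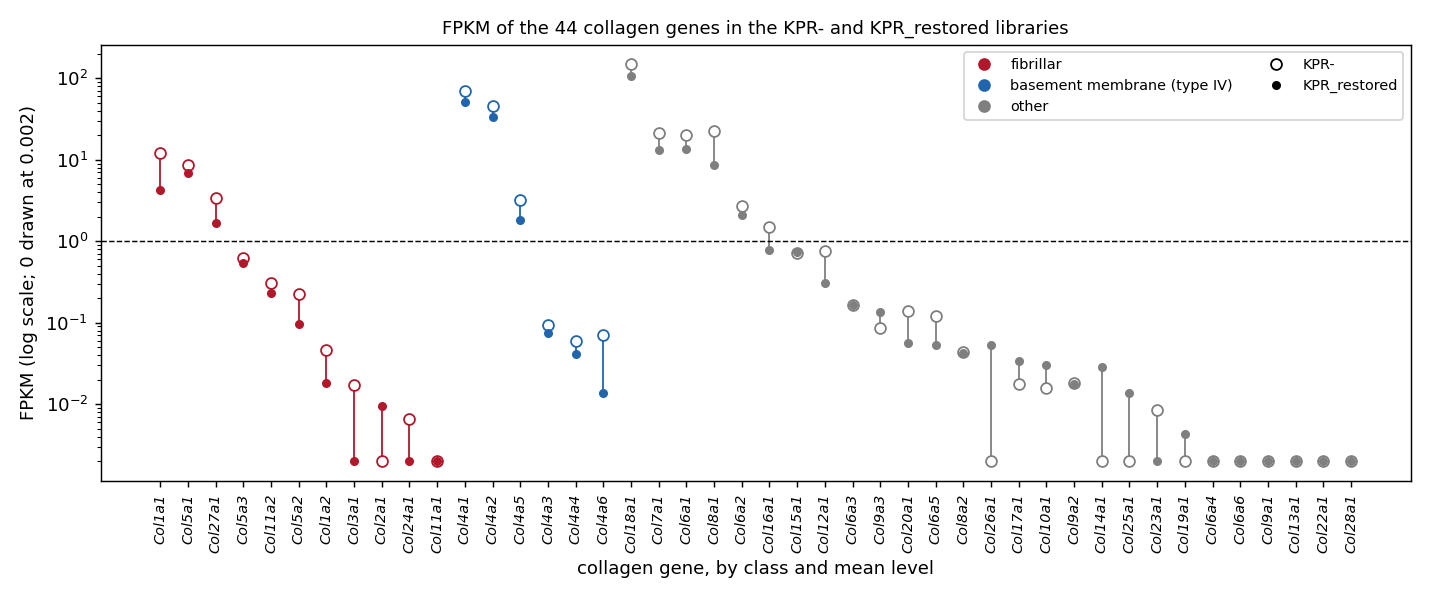
FPKM of each of the 44 collagen genes (log scale, values of 0 drawn at 0.002) in the KPR- library (open circles) and the KPR_restored library (filled circles), ordered by class and mean level, with a dashed line at 1 FPKM. The 12 genes whose mean lies above the line all have the open circle above the filled one, and Col18a1, Col4a1 and Col4a2 stand highest.

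Differences are given as log2(FPKM + 0.005) in the KPR_restored library minus the KPR- library, and a gene is called higher or lower when the difference reaches 0.5. Among the 12 expressed collagens 7 were lower and 0 higher, against 9.29% lower and 12.1% higher among the 11231 expressed genes. Their differences ran from -1.53 to -0.32 with a median of -0.64, whereas the median over all expressed genes was 0.0086 with quartiles of -0.23 and 0.27. Col16a1 reached a mean of 1 FPKM only through the KPR- library, where it was high. Of the 11 collagens at 1 FPKM or more in both libraries, 6 were lower, against 8.57% of the 10967 genes at that level in both. The 95% counting intervals, which cover the counting of fragments only, lay below 0 for all 12, and 6 of them lay wholly below -0.5.

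**Figure D2:**
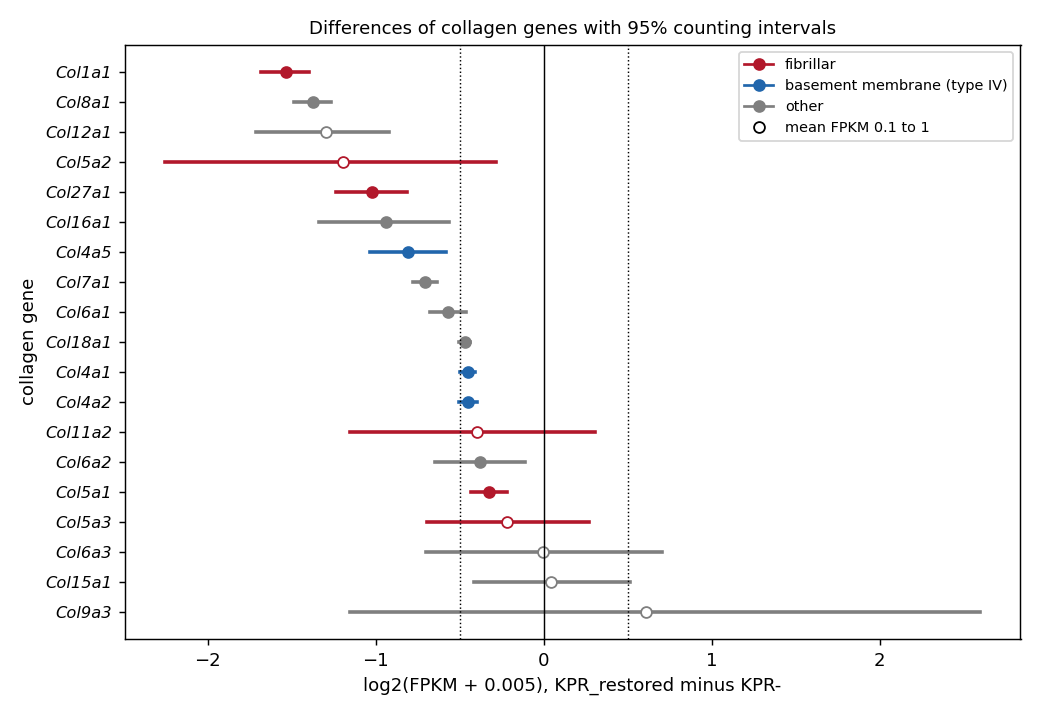
Log2 difference (KPR_restored minus KPR-) of the 19 collagens with a mean of 0.1 FPKM or more, with 95% counting intervals, coloured by class; open circles are genes with a mean of 0.1 to 1 FPKM and dotted lines mark -0.5 and 0.5. All 12 expressed collagens and their intervals lie left of 0, from Col1a1 at -1.53 to Col5a1 at -0.32.

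Fibrillar collagens gave both the largest and the smallest difference among the expressed collagens. Col1a1 (chr11:94936224-94953042), the alpha-1 chain of type I collagen, was 12.2 FPKM in KPR- and 4.21 FPKM in KPR_restored, 2.90-fold lower (log2 -1.53, counting interval -1.68 to -1.39). Col27a1 (chr4:63214004-63334991), a fibrillar chain best known from cartilage, was 3.42 FPKM and 1.68 FPKM, 2.03-fold lower (log2 -1.02, interval -1.24 to -0.81). Col5a1 (chr2:27886425-28039514), which helps start type I fibrils, was 8.61 FPKM and 6.88 FPKM. Its log2 difference of -0.32, with an interval of -0.43 to -0.22, stayed short of 0.5. Summed over the 11 fibrillar genes the level was 25.5 FPKM in KPR- and 13.7 FPKM in KPR_restored.

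The chains that usually pair with these were low in both libraries. Col1a2, the alpha-2 chain of type I collagen, was 0.0463 FPKM and 0.0180 FPKM, about 5 and 2 fragments. Col1a1 thus stood 263-fold above Col1a2 in the KPR- library (counting interval 117 to 843) and 234-fold above it in the KPR_restored library (66.7 to 2004), and these ratios overlap. Col5a2 was 0.228 FPKM and 0.0969 FPKM, a log2 difference of -1.20 with an interval of -2.25 to -0.28. Col5a3 was 0.623 FPKM and 0.536 FPKM, and its interval of -0.69 to 0.27 included 0. Col3a1, the main partner fibril of type I collagen in soft tissue, was 0.0171 FPKM in the KPR- library, about 2 fragments, and listed at 0 in the other.

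Type IV collagen was present as the Col4a1, Col4a2 and Col4a5 chains, and the first pair differed by less than 0.5. Col4a1 (chr8:11198423-11312826) and Col4a2 (chr8:11312805-11449287) lie head to head on opposite strands, and their annotated ends overlap by 22 bases. Both had a log2 difference of -0.45, with intervals of -0.50 to -0.41 for Col4a1 and -0.51 to -0.40 for Col4a2. After subtraction of the median of genes of like transcript length, these became -0.29 and -0.34, outside their intervals. The ratio of Col4a1 to Col4a2 was 1.54 in the KPR- library (1.49 to 1.59) and 1.54 in the KPR_restored library (1.48 to 1.60). Between them the levels differed while their ratio did not move beyond counting error.

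Col4a5 (chrX:141475385-141689234), a chain of the networks of kidney, lung and skin, was 3.22 FPKM in KPR- and 1.84 FPKM in KPR_restored, 1.75-fold lower (log2 -0.81, interval -1.03 to -0.58). Its head-to-head neighbour Col4a6, whose start lies 1308 bases away, was 0.0710 FPKM and 0.0138 FPKM, about 10 and 2 fragments (log2 -2.02, interval -5.59 to -0.13). The third head-to-head pair, Col4a3 and Col4a4, was low in both libraries, at 0.0926 FPKM and 0.0739 FPKM for Col4a3 and 0.0602 FPKM and 0.0408 FPKM for Col4a4. In each of the 3 neighbouring pairs both genes had a lower value in the KPR_restored library, although the values of Col4a3 and Col4a4 rested on at most 17 fragments a library. The 6 type IV genes summed to 121 FPKM in KPR- and 87.7 FPKM in KPR_restored.

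Among the other types, the network-forming Col8a1 had the largest difference. Col8a1 (chr16:57624258-57754737), a short-chain collagen of vessel walls and of the corneal basement membrane, was 22.6 FPKM in KPR- and 8.74 FPKM in KPR_restored, 2.59-fold lower (log2 -1.37, interval -1.48 to -1.26). Its share of the summed collagen FPKM was 6.20% and then 3.52%. Its partner Col8a2 was 0.0444 FPKM and 0.0431 FPKM, about 4 fragments in each library.

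Col7a1, Col18a1 and Col16a1 represent the collagens that link basement membranes and fibrils to their surroundings. Col7a1 (chr9:108953586-108984875), which builds the anchoring fibrils under stratified epithelia, was 21.6 FPKM in KPR- and 13.2 FPKM in KPR_restored (log2 -0.71, interval -0.78 to -0.64). Col16a1 (chr4:130047840-130099283), a fibril-associated collagen with interrupted helices (FACIT), was 1.50 FPKM and 0.781 FPKM (log2 -0.94, interval -1.34 to -0.56). Col18a1 (chr10:77052178-77166548) had a log2 difference of -0.47 with an interval of -0.50 to -0.44, just short of the threshold. Slc19a1, a folate carrier gene that overlaps Col18a1 on the opposite strand, was 18.3 FPKM and 15.4 FPKM, and reads in the overlap were not separated here. Both Col7a1 and Col16a1 were thus lower past the threshold, and Col18a1, the most abundant, was not.

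Type VI collagen, which forms beaded microfilaments from 3 different chains, was uneven. Col6a1 (chr10:76708792-76726168) was 20.3 FPKM in KPR- and 13.7 FPKM in KPR_restored (log2 -0.57, interval -0.68 to -0.46). Col6a2 (chr10:76595762-76623630) was 2.70 FPKM and 2.08 FPKM (log2 -0.38, interval -0.65 to -0.11). Col6a3 was 0.166 FPKM in each library, a log2 difference of -0.0035 with an interval of -0.70 to 0.70. Only Col6a1 of these passed 0.5, and its interval spans that value. Col6a1 stood 7.53-fold above Col6a2 in the KPR- library (6.60 to 8.59) and 6.59-fold above it in the KPR_restored library (5.68 to 7.67), so their ratio did not move beyond counting error.

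The ranges of the 3 classes overlapped, and no test between them was possible with these libraries. The expressed fibrillar collagens had a median difference of -1.02 over 3 genes (-1.53 to -0.32), of which 2 were lower by 0.5. The basement membrane collagens had a median of -0.45 over 3 genes (-0.81 to -0.45), of which 1 was lower. The other types had a median of -0.64 over 6 genes (-1.37 to -0.38), of which 4 were lower, and without Col16a1 the median was -0.57 over 5 genes, of which 3 were lower. Summed by class, the log2 difference was -0.90 for the fibrillar genes, -0.46 for the basement membrane genes and -0.57 for the others.

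The remaining 32 collagens had a mean under 1 FPKM. Without a filter on level, 17 of the 44 were lower and 8 higher by 0.5 or more, against 12.9% and 13.8% of all 23183 genes. Counting error is wide at these levels, and the intervals of only 4 of the 32 excluded 0: Col4a6, Col5a2, Col6a5 and Col12a1, all with lower values in the KPR_restored library. Col12a1, a FACIT collagen on the surface of type I fibrils, was 0.755 FPKM in KPR- and 0.304 FPKM in KPR_restored (log2 -1.30, interval -1.71 to -0.92). Col15a1, the relative of Col18a1, was 0.725 FPKM and 0.746 FPKM, with an interval of -0.41 to 0.52. Col9a3, a chain of the cartilage FACIT type IX, was 0.0867 FPKM and 0.135 FPKM, about 5 and 8 fragments, and its interval of -1.15 to 2.60 included 0. Col11a2 was 0.305 FPKM and 0.230 FPKM, with an interval of -1.15 to 0.31.

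At the bottom of the range, 7 collagens were listed at 0 in both libraries: Col6a4, Col6a6, Col9a1, Col11a1, Col13a1, Col22a1 and Col28a1. A count of 0 allows up to 3 fragments, which would be 0.0156 to 0.0466 FPKM depending on the gene's length. Another 8 were listed at 0 in 1 library, and no fold is given for them.

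Expressed collagens have long transcripts, from 4100 to 9198 bases, and long transcripts as a whole were lower in the KPR_restored library. Among expressed genes the median difference was 0.087 for transcripts under 2000 bases, 0.039 from 2000 to 4000, -0.079 from 4000 to 8000 and -0.23 from 8000 bases. The 3167 expressed genes in the length range of the expressed collagens had a median of -0.095, and 12.7% of them were lower by 0.5 or more. After subtraction of this trend, an alternative chosen after the data had been seen, the median of the expressed collagens was -0.53 in place of -0.64 and 6 of 12 were lower in place of 7. Col7a1, at -0.48, was the gene that dropped below the threshold, while Col5a1 moved to -0.10. What causes the length trend was not tested.

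**Figure D3:**
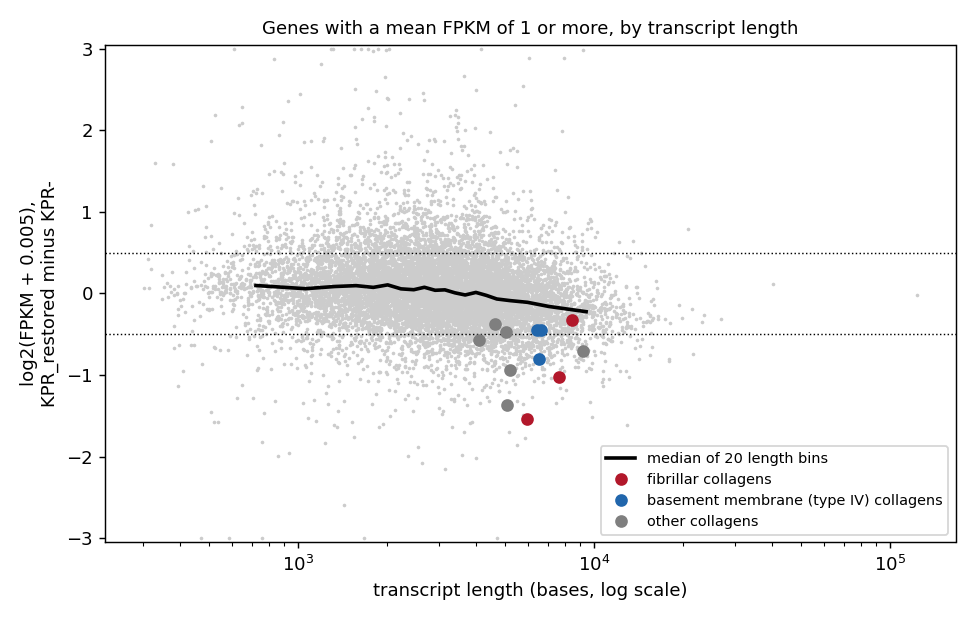
Log2 difference (KPR_restored minus KPR-) against transcript length (bases, log scale) for genes with a mean of 1 FPKM or more, with values beyond 3 either way drawn at the edge. The black line joins the medians of 20 length bins and falls with length, and the 12 expressed collagens (coloured by class) all lie below it.

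The machinery that makes and handles collagen was examined in lists of 53 gene symbols, of which 38 were expressed, 10 lower and 0 higher, with a median of -0.13. Against the 9.29% of all expressed genes called lower, these were 26.3%. Itga1 and Bgn reached a mean of 1 FPKM only through the KPR- library, where they were high. Of the 36 pathway genes at 1 FPKM or more in both libraries 9 were lower, against 8.57% of all 10967 genes at that level in both. The split by role was uneven: 4 of 28 expressed genes of intracellular modification, folding and export were lower, and 6 of 10 expressed genes of later processing, crosslinking, receptors and fibril proteoglycans, or 5 of 8 without Itga1 and Bgn. These are few genes, and the difference between the groups was not tested. The intervals of Loxl2 (-0.68 to -0.48), Loxl4 (-0.62 to -0.42) and Itga1 (-0.89 to -0.35) in the later group span -0.5. So does that of Fkbp14 (-1.33 to -0.47) among the intracellular genes. With a pseudocount of 1, Loxl4 (-0.49) and Itga1 (-0.31) no longer passed 0.5. Ctage5 and Mia2, 2 symbols listed apart in the data, name 1 gene, and neither passed the threshold. Over all lists the count of 10 lower ran from 8 to 13 under other settings.

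Among the genes that hydroxylate and glycosylate the chain, 14 of 15 were expressed, 3 were lower and the median was -0.066. P4ha3, a prolyl 4-hydroxylase subunit, was 4.52 FPKM in KPR- and 1.14 FPKM in KPR_restored (log2 -1.99, interval -2.44 to -1.55). P3h2, a prolyl 3-hydroxylase that acts on type IV collagen, was 5.60 FPKM and 2.59 FPKM (log2 -1.11). Other prolyl 3-hydroxylase genes had higher values short of the threshold, with P3h1 at 6.74 FPKM and 8.36 FPKM and P3h3 at 2.88 FPKM and 3.87 FPKM. Crtap, a partner of P3h1 named here after its values were seen as the remaining gene of the 3, was 54.4 FPKM and 35.7 FPKM (log2 -0.61).

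Folding and export genes differed little, with 1 of 14 lower and a median of -0.059. Fkbp14, a prolyl isomerase of the endoplasmic reticulum, was 2.35 FPKM in KPR- and 1.26 FPKM in KPR_restored (log2 -0.90), and Fkbp10, its relative, was 6.95 FPKM and 4.99 FPKM (log2 -0.48). Sec23a, part of the coat that carries procollagen out, was 11.9 FPKM and 13.7 FPKM, and Klhl12, which helps enlarge that coat, was 5.82 FPKM and 6.93 FPKM. Fkbp14 was the gene of this list that passed the threshold.

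In the extracellular steps, both expressed procollagen C-proteinase enhancers were lower. Pcolce2 was 30.6 FPKM in KPR- and 12.2 FPKM in KPR_restored (log2 -1.32), and Pcolce was 144 FPKM and 96.0 FPKM (log2 -0.59). Bmp1, the proteinase they enhance, was 35.7 FPKM and 30.5 FPKM, a log2 difference of -0.22. The enhancers thus passed the threshold and the proteinase did not. Of the lysyl oxidases that crosslink collagen, Loxl2 was 31.2 FPKM and 20.9 FPKM (log2 -0.58, interval -0.68 to -0.48). Loxl4 was 25.2 FPKM and 17.6 FPKM (log2 -0.52, interval -0.62 to -0.42). Both passed 0.5 with intervals that span that value, whereas Lox itself was 0.0107 FPKM and 0.0104 FPKM.

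Of 7 collagen receptor genes 4 were expressed and 2 were lower, or 1 of 3 without Itga1. Itgb1, the shared beta-1 integrin chain, was 279 FPKM in KPR- and 186 FPKM in KPR_restored (log2 -0.58), and Itga1 was 1.23 FPKM and 0.799 FPKM (log2 -0.62). Itga2, the alpha chain with the higher level, was 79.7 FPKM and 75.5 FPKM, and the receptor kinase gene Ddr1 was 56.5 FPKM and 51.4 FPKM. The beta chain and Itga1 therefore passed the threshold, and Itga2 and Ddr1 did not. Bgn, the fibril proteoglycan biglycan and the only expressed member of its list of 4, was 1.17 FPKM and 0.835 FPKM with an interval of -1.13 to 0.09.

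**Figure D4:**
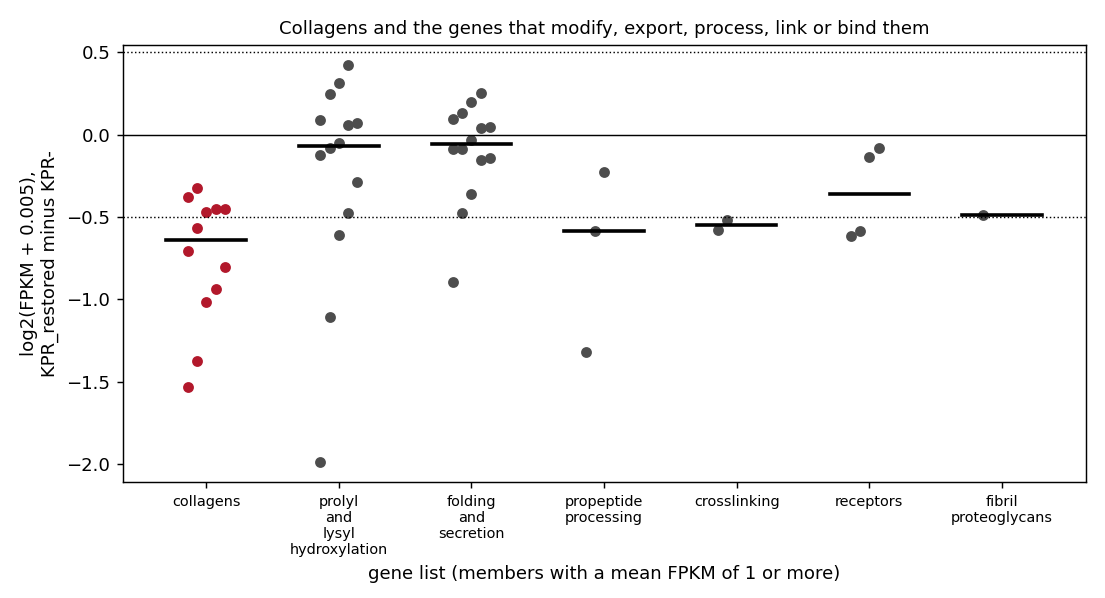
Log2 difference (KPR_restored minus KPR-) of expressed genes in the collagen list and in 6 lists of genes that modify, export, process, link or bind collagen, with a bar at each median and dotted lines at -0.5 and 0.5. The 12 collagens all lie below 0 (median -0.64), while the hydroxylation and folding lists are spread around 0 (medians -0.066 and -0.059).

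Markers of other cells that make collagen were examined because fewer cells of a type and less RNA per cell cannot be told apart in a bulk library. All 12 fibroblast and smooth muscle markers had a mean under 1 FPKM, and 3 of them were at 0 in both libraries. The fibroblast markers summed to 0.488 FPKM in KPR- and 1.12 FPKM in KPR_restored, and the smooth muscle markers to 0.600 FPKM and 0.429 FPKM. Of the 7 fibroblast markers 1 was higher by 0.5 or more and 2 were lower, against 13.8% and 12.9% of all 23183 genes. The lower ones were Pdgfrb, about 3 and 2 fragments, and Postn, about 1 and 0, and both intervals included 0. The higher one was Dcn, at 0.173 FPKM and 0.742 FPKM, about 6 and 26 fragments (log2 2.07, interval 0.76 to 3.65). Of 6 chondrocyte markers 2 were expressed, Acan at 108 FPKM and 76.8 FPKM and Sox9 at 13.6 FPKM and 29.6 FPKM, and Matn1 and Hapln1 were at 0. Of 5 endothelial markers Kdr alone was expressed, at 1.10 FPKM and 2.05 FPKM, and the list summed to 1.16 FPKM and 2.22 FPKM. Of 6 leukocyte markers Cd68 was higher, at 3.08 FPKM and 6.78 FPKM, Csf1r was lower, at 2.68 FPKM and 1.19 FPKM, and the list summed to 5.77 FPKM and 7.98 FPKM. Their part in the collagen differences was not tested.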

How the data were processed

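Poly(A) RNA from 1 KPR- and 1 KPR_restored culture was sequenced in pairs from directional libraries. The authors trimmed the reads, aligned them to mm10 with TopHat and computed the deposited FPKM values with Cufflinks. They also name a geometric normalization in edgeR, and their methods do not say whether the deposited values include it. Tool versions and the annotation are not given in the sources used here. The labels list 4-OHT for both samples. Members and gene lists were chosen with earlier results of these data known. Named genes were every expressed collagen, every collagen with a mean of 0.1 to 1 FPKM differing by 0.5 or more, their partner chains, and in each pathway list up to 2 rises and 2 falls, the largest on log2(FPKM + 1). Col3a1, Col11a2, Col15a1, Bmp1, Crtap, Ctage5, Ddr1, Itga2, Lox, Mia2, Slc19a1, the cell type markers printed and the collagens at 0 were named after their values were seen. Fragments per gene were estimated from the steps of FPKM and GENCODE M21 transcript lengths. Of values worth 0.5 to 5.5 fragments, 77.9% (KPR-) and 80.4% (KPR_restored) lay within 0.1 of a whole number. Counting intervals (95%, exact Clopper-Pearson) cover counting error only. The method was tested on simulated counts that used 1 transcript length for each gene. That simulation could not show the error of the fragment estimate for genes with several transcripts. Python 3.11.15, numpy 2.4.6, pandas 2.3.3 and scipy 1.17.1 were used. Results were recomputed under 12 alternatives. After the data were seen, removal of the transcript length trend was added, and the limit of 1 FPKM in both libraries was applied to the other counts and medians.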

Additional observations from a re-analysis of the deposited data

How the results depend on the processing

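No paired analysis was possible because each group has 1 library. The direction of no result reversed, and 84 of the 90 values of single collagens described last stayed below 0. Some counts and medians did move. With a mean of 0.1 FPKM as the limit, 19 collagens counted as expressed, 1 of them higher, and the median was -0.47 over all collagens, -0.71 over fibrillar and -0.52 over other types. Without a limit on level 44 were counted, 8 higher and 17 lower, with a median of -0.35 over all and 0 over other types. With a limit of 5 FPKM, 4 of 8 collagens were lower and the median was -0.52. These changes follow from the sets of genes counted. A threshold of 1 in place of 0.5 left 3 of the same 12 lower. The shares of all genes at this threshold and at the limit of 5 FPKM are not given here. With a pseudocount of 1 the medians were -0.51 (all), -0.72 (fibrillar) and -0.51 (other), since the larger pseudocount shrinks the differences of low genes, and Col16a1 at -0.49, Col12a1 at -0.43 and Col5a2 at -0.16 no longer passed 0.5. A pseudocount of 0.1 and centring on the median expressed gene each left 7 lower, and equal upper quartiles gave 8. A limit of 1 FPKM in either library kept 12 collagens, and in both libraries 11, of which 6 were lower. With each library scaled to the same FPKM total the fibrillar median was -0.68, over the larger set of 15 collagens that then passed the limit. Moving Col7a1, Col15a1 and Col18a1 to the basement membrane class gave -0.75 for the others. With the length trend removed the medians were -0.53 (all), -0.34 (basement membrane) and -0.53 (other), and the cause was not tested. Among the pathway genes the 10 lower became 8 with a pseudocount of 1, 13 with equal upper quartiles and 12 with the length trend removed. Over the 15 named collagens and 6 settings, 79 of 90 values moved by less than their counting interval, 11 by more and 0 changed sign. The length trend was not applied to Col5a2, Col9a3 and Col12a1, which had a mean under 1 FPKM. Their values in that setting could not move and are counted among the 79. Depth limits the collagens under 1 FPKM, where a few fragments set the value, and with 1 library a group the spread between cultures is unknown.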
